A study of Mus musculus with 6 samples.

Results

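The BCL2 family decides whether the outer mitochondrial membrane stays closed or is opened during apoptosis, and 10 of its genes were examined here in mouse lung epithelial cells given cigarette smoke extract (CSE). The genes were chosen by name, out of 36047 genes in the data, and fall into 3 roles: the survival genes Bcl2, Bcl2l1 and Mcl1, the effector genes Bax and Bak1, and the BH3-only genes Bbc3, Pmaip1, Bcl2l11, Bid and Bik. PolyA RNA was sequenced from MLE-12 cells labelled as wild type (WT), a single line derived from a mouse lung tumour in which the viral large T antigen had been driven by the surfactant protein C promoter. Both groups grew in DME/F12 medium that held FBS (2%) together with ITS supplement and penicillin/streptomycin (each at 1%), and 3 libraries came from cells given PBS and 3 from cells given 5% CSE of optical density 2.0. Treatment began at 30% culture density and the cells were collected 24 h later. The labels do not state if the 3 libraries of each treatment stem from different cultures; the p-values therefore reflect the spread of these libraries alone, and that spread could be technical.

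As background, survival proteins such as BCL2, BCL-XL (from Bcl2l1) and MCL1 hold the effectors BAX and BAK in check at the membrane. BH3-only proteins bind the survival proteins or the effectors directly, and once BAX or BAK form pores, cytochrome c leaves the mitochondrion and caspases are switched on. Much of this control acts on the proteins themselves, by binding, cleavage, phosphorylation and degradation, so RNA levels cover only one layer of it. In airway and alveolar epithelium the family is best known for setting how readily cells die after oxidant or DNA damage, and large T antigen binds p53, a transcription factor that acts on Bax, Bbc3 and Pmaip1.

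The libraries held between 12093009 and 24050167 estimated counts, and mitochondrially encoded genes took 2.19% to 2.89% of them. The label for RNA extraction speaks of lung tissue, whereas the samples are labelled as a cell line, so markers were examined. Krt8 and the lung transcription factor Nkx2-1 were present at means of 206 and 122 TPM (a relative abundance corrected for transcript length) in PBS, while Cdh5 and, in PBS, Cldn5 were listed at 0 and Ptprc had 16 counts in all over PBS and 25 over CSE. Epcam was low, at 2.36 TPM in PBS and 1.54 in CSE, Krt18 had 15 and 6 counts, and the mesenchymal gene Dcn was high, at 954 and 507 TPM. Of 7 epithelial markers 6 were tested and 4 fell (Cdh1, Krt8, Krt19 and Cldn3), while Epcam and Nkx2-1 (106 TPM in CSE) were not called. The 7 markers summed to between 1300 and 1414 TPM in PBS and between 720.1 and 813.1 in CSE. Krt19, at a mean of 1005 TPM in PBS and 493 in CSE, dominates that sum. The 6 mesenchymal markers summed to between 868.8 and 1126 TPM in PBS and between 477.5 and 544.5 in CSE, while leukocyte markers (2.95 to 6.38 TPM in sum over all libraries) and endothelial markers (5 genes, 1.37 to 3.29) overlapped between the groups in sum. In the mesenchymal list Col1a1 and Dcn fell while Pdgfra rose, from 2.67 to 4.49 TPM, and Dcn dominates the sum. The endothelial genes that were tested, Pecam1 (119 counts in PBS, 69 in CSE) and Vwf (34 and 72), lay apart in CPM in opposite directions with no call, and the leukocyte gene Cd68 had 76 and 88 counts. Whether these marker shifts have a part in the values below was not tested, and in bulk RNA fewer cells of a type and less RNA per cell cannot be told apart.

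Of the 10 genes, 8 had enough counts to be tested and edgeR's quasi-likelihood test called none of the 8 at the adjusted threshold of 0.05, against 11.4% of all 13451 genes tested. DESeq2 and limma-voom likewise called 0, and 2 of the 8 (Bax and Bbc3) had an unadjusted p under 0.05 in edgeR, against 26% of all genes. Fitted values lay above 0 for 4 genes and below 0 for 4, with a median log2 difference of −0.0062, beside 0.0056 over all genes tested. In this fit the unadjusted 95% interval of every tested member lay within 1.43-fold in either direction. That bound covers only the spread of these libraries and was not the same in all settings. For Bcl2 on log2(TPM + 0.1) the log2 difference was −0.30 with an SE of 0.19. The groups did not overlap in normalised counts (CPM, scaled to library size) for 3 of the 8 genes, Bax with all CSE libraries higher and Bcl2l1 and Bbc3 with all lower, against 31.2% of all genes. A share of 3 in 8 is near that background. Over all genes, 4.32% were called higher and 7.12% lower; 37.8% of calls were thus higher, a share that was 51.6% after removal of GC and length trends and 22.4% for log2(TPM + 1). The count of 1539 called genes depended on single libraries: leaving out PBS replicate 3 gave 963, CSE replicate 2 gave 859 and CSE replicate 3 gave 837.

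**Figure D1:**
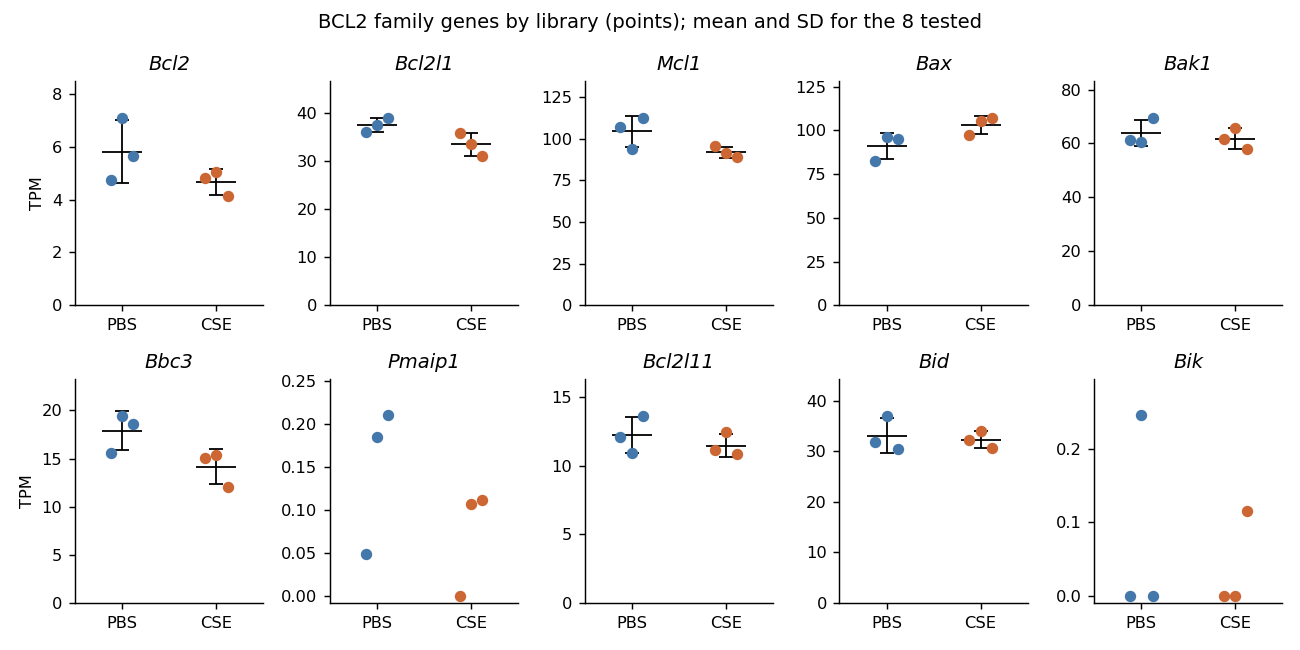
TPM of each of the 10 genes in each of the 3 PBS (blue) and 3 CSE (orange) libraries, 1 panel a gene with its own linear scale; bars give the mean and SD for the 8 tested genes. Bax and Mcl1 sit near 100 TPM, Bcl2 between 4.13 and 7.09, and Pmaip1 and Bik at or near 0.

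Levels spanned a wide range. By mean TPM over the 6 libraries the order was Mcl1, Bax, Bak1, Bcl2l1, Bid, Bbc3, Bcl2l11, Bcl2, Pmaip1 and Bik. Mcl1 and Bax overlapped: Mcl1 was above Bax in 2 of 3 PBS libraries and in 0 of 3 CSE libraries. Bcl2l1 was above Bid in 5 of 6 libraries, and Bbc3 was above Bcl2l11 in 6 of 6 although their ranges over libraries overlapped. The other neighbours lay apart over all libraries, except Pmaip1 and Bik at the bottom.

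Among the survival genes, Bcl2 had the lowest level of the 8 tested genes and, over all 6 libraries, the highest coefficient of variation (19.5%); within CSE that of Bbc3 was higher (13.0% against 10.4%). Bcl2 encodes the founding member of the family, and lies on the minus strand of chromosome 1 (GRCm38, chr1:106538178-106714274). Its level was 4.74, 7.09 and 5.65 TPM in PBS and 4.84, 5.06 and 4.13 TPM in CSE. The groups overlapped, with the highest value in PBS replicate 2, and the means were 5.83 ± 1.18 and 4.67 ± 0.486 TPM (SD, n = 3). On counts, the log2 difference was −0.048 ± 0.13 (SE, 95% interval −0.34 to 0.24, adjusted p = 0.86), from 823 counts in PBS and 818 in CSE. That sign turned to 0.095 without PBS replicate 2 and 0.021 without CSE replicate 3. On the log2(TPM + 0.1) scale, which takes transcript length into account, it was −0.30 (adjusted p = 0.41 with limma).

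Beside that gap between the scales, the groups lay apart in how Bcl2 reads were divided between transcripts. Bcl2 has 2 annotated transcripts here. Bcl2-201 joins 2 exons and encodes 236 amino acids, the long form that carries the C-terminal membrane anchor. Bcl2-202 is a single exon that reads on for 1966 bases into the intron and encodes 199 amino acids, a short form that lacks the anchor. The 2 coding sequences part after the base at chromosome 1, position 106712305, and the RNA is shown around that point, from the GENCODE vM21 transcripts of GRCm38, because the share results turn on it; the bases in capitals follow the split, and in Bcl2-202 they are its last 7 codons and the stop codon.
Bcl2-201: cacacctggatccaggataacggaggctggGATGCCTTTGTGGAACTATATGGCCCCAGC
Bcl2-202: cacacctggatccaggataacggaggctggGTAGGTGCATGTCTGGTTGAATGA

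Bcl2-201 took 39.5%, 34.7% and 38.3% of the gene's TPM in PBS and 52.2%, 51.0% and 50.1% in CSE. All 3 CSE libraries lay above all 3 PBS libraries, with means of 37.5% ± 2.52 and 51.1% ± 1.04 (SD, n = 3), a difference of 13.6 percentage points. The spliced form itself ran at 1.87, 2.46 and 2.16 TPM in PBS and 2.52, 2.58 and 2.07 in CSE, which overlap. The intron-reading form Bcl2-202 ran at 2.87, 4.63 and 3.49 TPM in PBS and 2.31, 2.48 and 2.06 in CSE, so its groups lay apart, with CSE lower. In edgeR's transcript usage test, which asks whether a transcript's change differs from that of the gene's other transcripts, neither was called (adjusted p = 1 for both). These estimates rest on few reads, with 117, 204 and 180 estimated counts for Bcl2-201 and 67.5, 143 and 109 for Bcl2-202 in PBS, and 140, 292 and 169 against 47.9, 105 and 63.6 in CSE. Exons of D630008O14Rik on the opposite strand overlap Bcl2 by up to 497 bases, and since the strand setting is not given in the sources used here, reads from the pair cannot be told apart.

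Genes of this build picked by the number and lengths of their tested transcripts alone, Bcl2 among them, were set beside that shift. They were not matched to Bcl2 in counts, level or exon structure, so they give only a rough background. Among 915 genes with 2 tested transcripts of which one was at least 2 times as long as the other, the longer transcript's share was higher in all CSE libraries in 53 (5.8%) and lower in 61 (6.7%), with a median difference of −0.13 percentage points. In 21 of the 915, Bcl2 included, the longer transcript's share rose by at least as much as in Bcl2. Falls of that size were not counted.

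Bcl2l1, the gene of BCL-XL (chr2:152780668-152831728, minus strand), ran at 36.1, 37.4 and 38.9 TPM in PBS and 35.8, 33.7 and 31.03 TPM in CSE. Each CSE library was below each PBS library, but the step between the nearest libraries was small beside the spread within CSE. The log2 difference on counts was −0.089 ± 0.07 (SE, 95% interval −0.24 to 0.063) and was not called (adjusted p = 0.45). Transcripts Bcl2l1-201 and Bcl2l1-202 have coding sequences of 233 codons each, the length of the long form BCL-XL. Bcl2l1-201 took 85.8% to 91.1% of the gene's TPM in PBS and 76.7% to 92.2% in CSE, and Bcl2l1-202 went from 0.04% in CSE replicate 2 to 17.9% in CSE replicate 3. The division between them thus varied more between CSE libraries than between the groups.

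Mcl1, whose protein is short-lived and which had the highest mean TPM over the 6 libraries, though not in CSE, lies at chr3:95658788-95663176 on the plus strand. It ran at 107, 93.7 and 112 TPM in PBS and 95.5, 91.2 and 89.2 TPM in CSE. The groups overlapped through PBS replicate 2, and the means were 104 ± 9.55 and 91.9 ± 3.21 TPM (SD, n = 3). The log2 difference on counts was −0.099 ± 0.081 (SE, 95% interval −0.28 to 0.079, adjusted p = 0.48), from 10888 and 10497 counts. It was below 0 in each of the 18 alternative settings, between −0.18 and −0.032, and called in none. At least 99.1% of its TPM in each library fell on Mcl1-201, which encodes 331 amino acids, the full-length survival form.

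The effector gene Bax came nearest to the threshold of the 8 tested genes. Bax encodes a pore-forming protein that moves from the cytosol to mitochondria, and lies at chr7:45461697-45466898 on the minus strand. Its level was 82.6, 96.0 and 95.1 TPM in PBS and 97.1, 105 and 107 TPM in CSE, so that all 3 CSE libraries were above all 3 PBS libraries. In normalised counts it ran at 36.8, 37.5 and 38.2 CPM in PBS and 40.4, 46.5 and 49.7 CPM in CSE, and CSE replicate 1 lay nearest to PBS. The log2 difference was 0.28 ± 0.087 (SE, 95% interval 0.089 to 0.48), a 1.22-fold higher level, with an adjusted p of 0.065 in edgeR's test. The gene ranked 1732 by p among the 13451 tested. It passed the threshold under 3 of 18 alternative settings, with no filter on low counts (0.29, adjusted p = 0.037), after removal of GC and length trends (0.26, adjusted p = 0.043) and without CSE replicate 1 (0.36, adjusted p = 0.036). Over the 18 settings the log2 difference lay between 0.18 and 0.36 and the adjusted p between 0.036 and 1, the last in a test against a 1.5-fold change.

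Of the 31-base words of Bax-201, 19.5% also occur in other genes, chiefly Gm45808. Single exons of this annotated gene overlap single Bax exons by up to 140 bases on the same strand. Gm45808 was listed at 0 counts in all 6 libraries, so no reads of the shared sequence were assigned to it. Bax-201, which encodes the standard 192-amino-acid protein, took 76.4%, 73.2% and 77.5% of the gene's TPM in PBS and 78.1%, 82.3% and 82.2% in CSE. The groups did not overlap, by a margin of under 1 percentage point between PBS replicate 3 and CSE replicate 1, and the usage test did not call it (adjusted p = 1). The 3 expressed genes whose centred log2 CPM lay closest to that of Bax over the 6 libraries were Polr1c (root-mean-square difference 0.029), Mplkip (0.035) and Faap20 (0.039), out of 9469 candidates. Polr1c, a subunit shared by RNA polymerases I and III, had a log2 difference of 0.30.

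Bak1, the gene of the effector BAK that resides in the mitochondrial membrane, lies at chr17:27019810-27029009 on the minus strand. It ran at 61.4, 60.6 and 69.3 TPM in PBS and 61.8, 65.8 and 57.8 TPM in CSE. The groups overlapped widely, and the log2 difference was 0.042 ± 0.071 (SE, 95% interval −0.12 to 0.20, adjusted p = 0.76), from 3679 and 3932 counts. The sign was negative on the TPM scale (−0.044 for log2(TPM + 1), where the median over all genes was −0.061) and without CSE replicate 2 (−0.0021). Its variation over the 6 libraries, a coefficient of 6.5%, was the smallest of the 10 genes.

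Most Bak1 RNA was assigned to transcripts that the annotation marks for nonsense-mediated decay, the pathway that removes RNAs with an early stop. Bak1-204, with an open reading frame of 79 codons, took 72.6% to 84.2% of the gene's TPM over the 6 libraries. Bak1-201, with 151 codons, took 8.88% to 24.0%, and Bak1-202, which encodes the full BAK protein of 209 amino acids, took 3.35% to 6.89%. None of the 3 was called in the usage test and their groups overlapped. A pair of short stretches of RNA sets the 3 apart within the coding region, and they are shown because they tell the annotated transcripts apart: 5 bases, in capitals in Bak1-202, that Bak1-204 lacks at chr17:27022873-27022877, and a 20-base exon, in capitals in Bak1-201, at chr17:27021663-27021682.
Bak1-202: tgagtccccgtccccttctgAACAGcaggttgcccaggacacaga
Bak1-204: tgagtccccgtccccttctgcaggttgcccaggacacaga
Bak1-201: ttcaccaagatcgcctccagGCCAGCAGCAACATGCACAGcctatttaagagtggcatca

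The transcripts also differ at the 5′ end, where the first exon of Bak1-202 has 599 bases against 177 in Bak1-204 and 168 in Bak1-201. A model that divides reads among transcripts draws on both features, and without the reads it was not tested which of them the division rests on. The Bak1 gene total does not depend on that division as counts, whereas its TPM does through transcript length. Ggnbp1 overlaps Bak1 exons by up to 257 bases on the opposite strand.

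**Figure D2:**
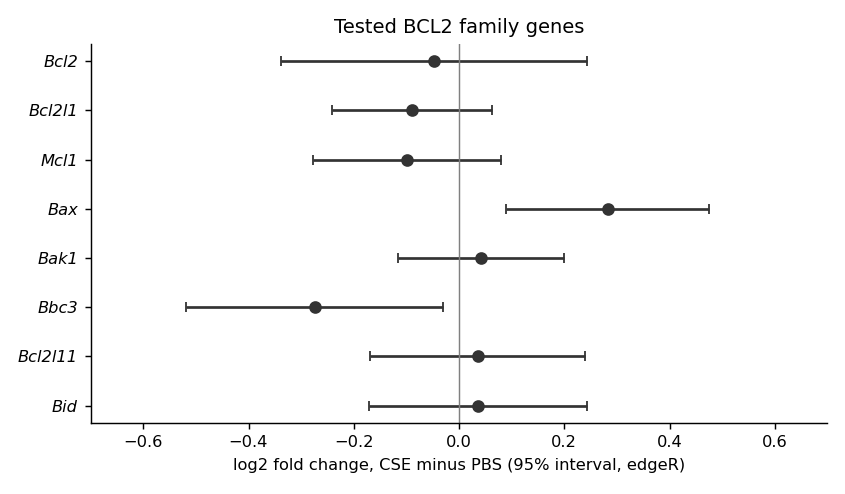
Log2 difference of CSE minus PBS for the 8 tested genes (points) with 95% intervals (bars) from edgeR; the vertical line marks no difference. The intervals of Bax and Bbc3 exclude 0 before adjustment, and the other 6 include it.

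The BH3-only gene Bbc3 had a sign opposite to that of the effector gene Bax. Bbc3 encodes PUMA, which binds all the survival proteins and is a classical p53 target, and lies at chr7:16308393-16318205 on the plus strand. It ran at 15.6, 19.4 and 18.6 TPM in PBS and 15.1, 15.4 and 12.1 TPM in CSE. All 3 CSE libraries were below all 3 PBS libraries, although CSE replicate 2 and PBS replicate 1 nearly met, and CSE replicate 3 was the lowest. The log2 difference on counts was −0.27 ± 0.11 (SE, 95% interval −0.52 to −0.030) with an adjusted p of 0.15, from 916 and 780 counts. It was below 0 in each of 18 alternative settings, between −0.34 and −0.11, and called in none. The smallest size came after removal of GC and length trends (adjusted p = 0.50). Bbc3 and Bax are both targets of p53, and Trp53, the gene of p53, ran at 181 TPM in PBS and 185 in CSE with a log2 difference of 0.11 ± 0.072 (SE, adjusted p = 0.35). The RNA of Trp53 does not measure the activity of its protein, and a part of p53 in these values was not tested.

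Bcl2l11 encodes BIM, whose 3 classical forms arise by splicing (BIM-EL, BIM-L and BIM-S), and lies at chr2:128126038-128162547 on the plus strand. Its level was 12.1, 10.98 and 13.6 TPM in PBS and 11.1, 12.5 and 10.9 TPM in CSE. The groups overlapped, with a log2 difference of 0.035 ± 0.093 (SE, 95% interval −0.17 to 0.24, adjusted p = 0.85). Bcl2l11-205, of 196 codons, the length of mouse BIM-EL, took 77.8% to 90.3% of the gene's TPM, and Bcl2l11-201, of 110 codons, took 0% to 4.71%. Neither share was called in the usage test.

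Bid, the gene of a protein that caspase-8 cuts to link death receptors to mitochondria, lies at chr6:120891930-120916853 on the minus strand. It ran at 31.9, 37.0 and 30.5 TPM in PBS and 32.4, 34.1 and 30.6 TPM in CSE. The groups overlapped, with a log2 difference of 0.036 ± 0.094 (SE, 95% interval −0.17 to 0.24, adjusted p = 0.85). Bid-201 and Bid-204 have coding sequences of 195 codons each, and Bid-204 ends in a further exon beyond the end of Bid-201 and is marked for decay in the annotation. Bid-204 took 42.8%, 48.2% and 44.6% of the gene's TPM in PBS and 33.2%, 39.9% and 42.0% in CSE. The CSE libraries were all lower, with CSE replicate 3 within 1 percentage point of PBS replicate 1, and the usage test did not call it. Beyond the end of Bid-201, exons of Bcl2l13 on the opposite strand overlap Bid-204 by up to 628 bases. Bcl2l13 ran at 43.6 to 52.6 TPM in PBS and 40.3 to 44.0 in CSE. Reads from Bid and Bcl2l13 cannot be told apart there without a strand setting.

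Pmaip1 and Bik were close to absent and were not tested. Pmaip1 encodes NOXA, a BH3-only protein that binds MCL1, and had 1, 5 and 4 counts in PBS and 0, 4 and 3 in CSE. With 10 counts in PBS and 7 in CSE, the ratio of CSE to PBS, scaled for depth, was 0.674 with a 95% interval from 0.218 to 1.96 that covers counting error only. Bik, the gene of a BH3-only protein of the endoplasmic reticulum, had 0, 2 and 0 counts in PBS and 0, 0 and 1 in CSE. Its ratio of 0.481 has a counting interval from 0.00816 to 9.24. No difference was detectable at this depth for either gene.

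**Figure D3:**
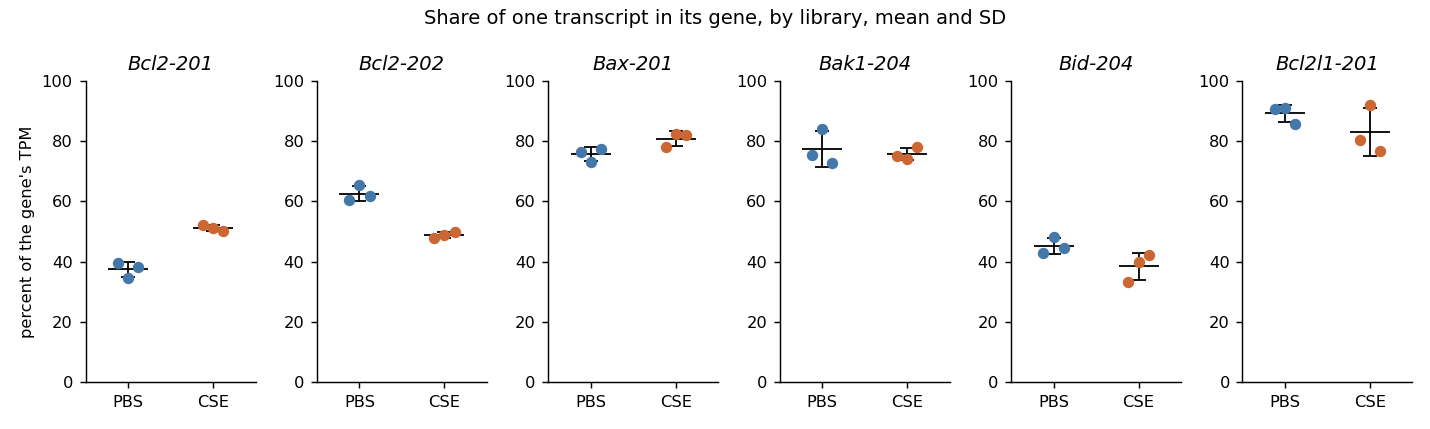
Share of a gene's TPM assigned to 1 transcript in each PBS (blue) and CSE (orange) library, in percent, with the mean and SD (bars, n = 3). Bcl2-201 went from 34.7% to 39.5% in PBS to 50.1% to 52.2% in CSE; Bak1-204 overlapped between groups.

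Counted over the family, edgeR's transcript usage test covered 17 transcripts of 6 genes and called 0, against 0.182% of 29114 transcripts called. At that rate 0 calls in 17 is what the background gives, and it says nothing particular about the members. The smallest unadjusted p in that test was 0.239, so none was under 0.05. Shares did not overlap between the groups for 4 of the 17 (Bcl2-201, Bcl2-202, Bax-201 and Bid-204), against 11.7% of all transcripts tested. The 2 Bcl2 shares sum to 100% and are therefore 1 observation.

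The balance of roles was described by sums and ratios of TPM, which carry no test. The 3 survival genes summed to 148, 138 and 157 TPM in PBS and 136, 130 and 124 TPM in CSE, with all CSE libraries lower. In CPM, Mcl1, the largest of the 3, overlapped: PBS replicate 2 (191) lay below all CSE libraries (197 to 202). None of the 3 genes was called, and over all genes the median log2 difference was −0.061 for log2(TPM + 1). Bax and Bak1 summed to 144, 157 and 164 TPM in PBS and 159, 171 and 165 TPM in CSE, which overlap. The ratio of the second sum to the first was 0.973, 1.13 and 1.05 in PBS and 1.17, 1.32 and 1.32 in CSE, with means of 1.05 ± 0.0799 and 1.27 ± 0.0879 (SD, n = 3), and the groups did not overlap. The 5 BH3-only genes summed to between 59.7 and 67.8 TPM in PBS and between 53.8 and 62.1 in CSE.

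The ratio of Bax to Bcl2, a common summary of this family, was 17.4, 13.6 and 16.8 in PBS and 20.1, 20.8 and 25.9 in CSE. All CSE libraries were higher in TPM, and the ratio takes in the Bcl2 transcript shift described above through its TPM. On counts the groups overlap in this ratio: PBS replicate 1 had 487 Bax and 185 Bcl2 counts, and CSE replicate 1 had 488 and 188. The ratio of Bax to Bcl2l1 in TPM was 2.29, 2.57 and 2.45 in PBS and 2.72, 3.12 and 3.44 in CSE, without overlap. Mcl1 over Bcl2l1 was 2.79 ± 0.247 in PBS and 2.75 ± 0.108 in CSE, with groups that overlap.

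The other genes of the pathway were taken from 7 lists holding 84 genes, of which 72 were tested. Of these, 4 rose, 2 fell and 66 were not called; 15 had an unadjusted p under 0.05. These are 8.3% and 20.8% of the 72, below the 11.4% and 26% of all genes tested, and the median log2 difference was 0.051, beside 0.0056 over all genes.

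Of 16 other BCL2 family genes 10 were tested, and 1 rose and 1 fell. Bmf, the gene of a BH3-only protein held at the cytoskeleton and linked to death on detachment, rose from 5.38, 6.14 and 6.45 TPM in PBS to 11.3, 10.1 and 10.1 TPM in CSE. Every CSE library was more than 1.5 times as high as any PBS library, and the log2 difference was 0.87 ± 0.087 (SE, adjusted p = 9.5e-05). Bok, the gene of a further BAX-like protein, fell from 101, 116 and 110 TPM in PBS to 78.6, 83.8 and 81.2 TPM in CSE. The groups lay apart, with a log2 difference of −0.33 ± 0.076 (SE, adjusted p = 0.019). The call of Bok was lost without CSE replicate 1 (−0.27, adjusted p = 0.087) and without CSE replicate 2 (−0.34, adjusted p = 0.069); over 17 settings other than the 1.5-fold test its adjusted p lay between 0.0063 and 0.087. Bmf kept its call in all 17.

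In the death receptor list, 9 of 11 genes were tested, 1 rose and none fell. Fas, the receptor through which caspase-8 is activated and BID is cut, rose from 31.8, 37.0 and 29.4 TPM in PBS to 55.5, 54.0 and 57.3 TPM in CSE. The groups lay well apart, and the log2 difference was 0.88 ± 0.11 (SE, adjusted p = 0.00048). Its call held in all 17 of those settings. Bid, the link from this receptor to the family, had the values given above.

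Among 13 apoptosome and caspase genes, all tested, 1 rose and none fell. Cycs, the gene of cytochrome c, rose from a mean of 42.8 to 47.5 TPM, with a log2 difference of 0.33 ± 0.093 (SE, adjusted p = 0.043). That call was held in 7 of 17 settings and in 1 of 6 with a library left out: leaving out PBS replicate 2 (0.35, adjusted p = 0.059), PBS replicate 3 (0.26, 0.16), CSE replicate 1 (0.38, 0.057), CSE replicate 2 (0.37, 0.083) or CSE replicate 3 (0.24, 0.19) ended it, where the second value is the adjusted p, which over the 17 settings ran from 0.0032 to 0.33. Of the 31-base words of its main transcript 31.8% occur in other genes, chiefly Gm10053, so its count is uncertain.

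In the list on turnover of BCL2 family proteins, 9 of 10 genes were tested, 1 rose and none fell. March5, the gene of a mitochondrial ubiquitin ligase that acts on MCL1 complexes, rose from 73.8, 75.8 and 79.4 TPM in PBS to 93.2, 93.1 and 91.6 TPM in CSE. The libraries of each group were close together, and the log2 difference was 0.37 ± 0.067 (SE, adjusted p = 0.0043), a call kept in all 17 settings. March5 shares 21.4% of its words, chiefly with Gm8641, so some of its reads are divided by the model.

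Of 15 transcriptional regulators of the family 14 were tested, 1 fell and none rose. Rela, the NF-kB subunit that acts on Bcl2l1 and the inhibitors of apoptosis, fell from a mean of 173 to 133 TPM, with a log2 difference of −0.32 ± 0.068 (SE, adjusted p = 0.011). That call was lost after removal of GC and length trends (−0.16, adjusted p = 0.11), without CSE replicate 2 (−0.34, adjusted p = 0.054) and without CSE replicate 3 (−0.28, adjusted p = 0.081), within a range of 0.00053 to 0.11 over the 17 settings.

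None of 11 mitochondrial partners was called in edgeR's test, and none had an unadjusted p under 0.05. The smallest p were those of Mfn2, a fusion protein of the outer membrane (0.13 ± 0.067, SE, adjusted p = 0.25), and Bcap31, a protein of the endoplasmic reticulum that binds BCL2 (0.11 ± 0.073, adjusted p = 0.38). Of 8 inhibitors of apoptosis 6 were tested and none was called or had an unadjusted p under 0.05, with Birc6 (−0.15 ± 0.091, adjusted p = 0.34) and Birc2 (0.13 ± 0.10, adjusted p = 0.46) having the smallest p.

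**Figure D4:**
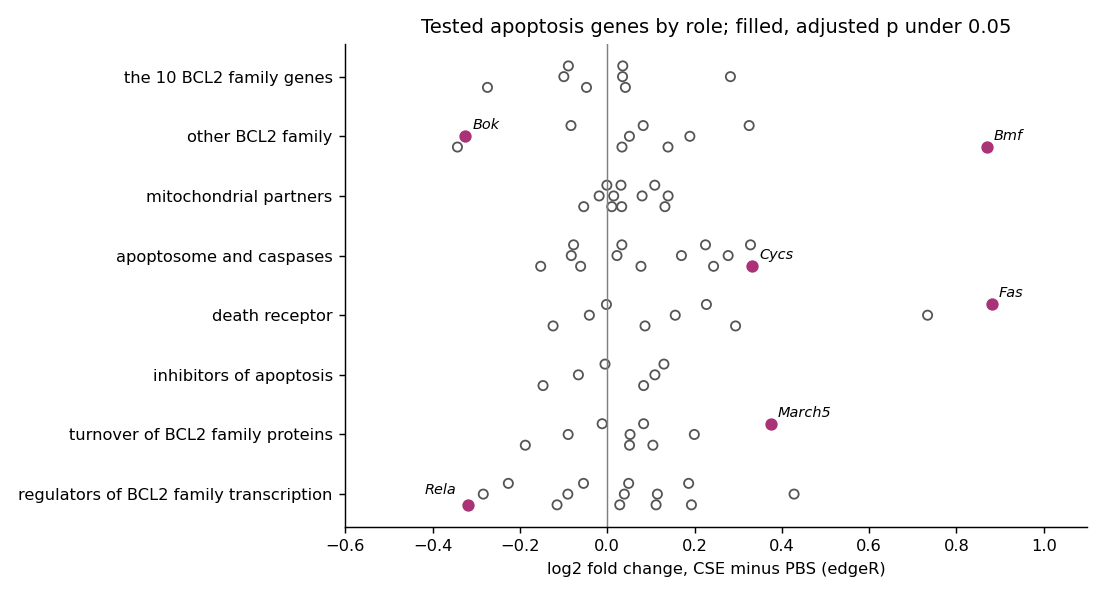
Log2 difference of CSE minus PBS for each tested gene of the 10 members and of 7 other lists, by list (rows); filled points have an adjusted p under 0.05 in edgeR. Of 72 genes outside the members, Bmf, Fas, Cycs and March5 are filled to the right and Bok and Rela to the left.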

How the data were processed

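RNA-seq libraries of MLE-12 cells (3 PBS, 3 CSE, grouped by sample title) were deposited as transcript tables in which, per the file headers, the authors give an estimated count and a TPM for each transcript, with its length and effective length. Tools listed in the submitters' processing notes, without roles, are FastQC 0.12.1, fastp 0.20.1, kallisto 0.46.2 and DESeq2 1.40.2, with build GRCm38; index and strand are not given in the sources used.

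From 118489 transcripts, 116816 (98.6%) matched GENCODE vM21 and were summed over 36047 genes, with counts rounded; the other 1673 held 0.638% to 0.664% of counts. Library totals were 12093009 to 24050167, so that 3 counts correspond to 0.125 to 0.248 CPM. Intervals of depth-scaled ratios cover counting error only. They take no account of reads that may be copies of each other, as reads had no molecular identifiers. Libraries within a group differed by more than sampling noise (chi-square over genes divided by its degrees of freedom, 5.98 to 19.0).

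CSE and PBS were compared with the quasi-likelihood test of edgeR, two-sided (filterByExpr, minimum count 10; TMM; Benjamini-Hochberg adjustment over all genes; threshold 0.05; biological coefficient of variation 9.17%). Transcript usage was tested with edgeR's diffSpliceDGE, chosen after the data were seen, without the uncertainty of dividing reads among transcripts. Both procedures were tested on simulated data. In simulated gene counts, 66% of 1.5-fold and 85% of 2-fold changes were recovered, and 3.8% of calls were false. The simulation of the usage test used a larger change than that of the Bcl2 transcripts and a set dispersion. It therefore does not show if a shift like that of Bcl2 would be called. Alternatives were DESeq2, limma-voom, RLE or library-size scaling, a mean of at least 5 CPM, no filter, an effective-length offset, limma on log2(TPM + 1) and log2(TPM + 0.1) with a mean of at least 1 TPM, GC and length trends removed by loess (span 0.5), a test against a 1.5-fold change, a replicate block and each library left out.

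The members, lists and tests were chosen with earlier results of these data known. Named were all 10 members, every called gene of a list or else its 2 of smallest p, and the 3 genes of at least 5 TPM nearest to Bax, the member of smallest p, leaving out gene models and pseudogenes. Other genes named, such as markers, the overlapping genes and Trp53, were chosen after their values were seen. Sequences and positions are from GENCODE vM21. The software was Python 3.11.15 with pandas 2.3.3 and matplotlib 3.10.9, and R 4.3.3 with DESeq2 1.42.0, edgeR 4.0.16 and limma 3.58.1.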

Additional observations from a re-analysis of the deposited data

How the results depend on the processing

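The number of members called lower was 0 in all 18 alternatives, and that called higher was 0 except for 1 (Bax) with no filter on low counts, 1 after removal of GC and length trends, and 0 to 1 with a library left out. The count of 1539 genes called overall moved to 998 with log2(TPM + 1), 985 with log2(TPM + 0.1) and 161 in the test against a 1.5-fold change, and to between 837 and 1941 with a library left out; the 6 other pathway genes called became 0 in the 1.5-fold test, which asks for more, and 3 to 8 with a library left out. The share of calls that were higher, 37.8%, was 47.9% with no filter, 22.3% with log2(TPM + 0.1) and 49.8% without PBS replicate 1. With the replicate number as a block, 1022 genes, 5 other pathway genes and 0 members were called. Deviations of same-numbered libraries correlated at −0.124, 0.0061 and −0.0594 across genes. Only CSE replicate 2 correlated best with the library of its own number. With 3 libraries a group, these values cannot decide whether same-numbered libraries share a culture or batch, which the labels do not state. The usage test called 0 member transcripts under the block and with each library left out. Signs turned, with no call, for Bcl2 (0.0207 without CSE replicate 3; −0.1191 to 0.0952 with a library left out), Bcl2l1 (0.0030 after removal of GC and length trends), Bak1 (−0.0439 for log2(TPM + 1), −0.0445 for log2(TPM + 0.1), −0.0021 to 0.068 with a library left out), Bcl2l11 (−0.0091 with the length offset, −0.0831 and −0.0892 on the 2 TPM scales, −0.0322 to 0.089 with a library left out) and Bid (−0.0302 and −0.0309 on the 2 TPM scales, −0.0551 to 0.1249 with a library left out). Over all genes, the median log2 difference was −0.061 for log2(TPM + 1) and −0.0646 for log2(TPM + 0.1), beside 0.0056 in the main fit. The cause of the turned signs was not tested. Depth limits what can be said of Pmaip1, Bik and the division of Bcl2 counts between transcripts.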

Other observations

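Among pathway genes with too few counts for the test, 3 had depth-scaled ratios of CSE to PBS whose 95% counting intervals exclude 1; they were chosen after their values were seen, and the intervals leave out the spread between libraries. With at least 1 of the libraries left out, a step also chosen after seeing the data, the interval of each of the 3 genes included 1. Birc7, the gene of an inhibitor of apoptosis, had 6, 10 and 14 counts in PBS and 4, 1 and 4 in CSE, a ratio of 0.289 (0.121 to 0.624) that was 0.468 (0.186 to 1.04) without CSE replicate 2. Bcl2l14, a further BCL2 family gene, had 7, 7 and 9 counts in PBS and 4, 33 and 12 in CSE, a ratio of 2.05 (1.23 to 3.53) that was 1.22 (0.603 to 2.41) without CSE replicate 2, which holds most of the CSE counts. Trim17, the gene of a ubiquitin ligase that acts on MCL1, had 7, 4 and 2 counts in PBS and 8, 12 and 10 in CSE, a ratio of 2.22 (1.12 to 4.64) that was 3.53 (1.45 to 10.4) without PBS replicate 1, 2.08 (0.961 to 4.97) without PBS replicate 2 and 1.63 (0.792 to 3.60) without PBS replicate 3.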
